A study of Homo sapiens with 2 samples.

Results

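The genes described here encode enzymes and receptors of lysophospholipid signalling: the phosphatases PLPP1 to PLPP5, the ligand-making enzymes ENPP2 and SPHK1, and the receptors LPAR1, S1PR1 and S1PR3. They were chosen by gene symbol, current or former, from the annotation of the array, and the list was drawn up with earlier results of these same arrays known. Their levels and differences are therefore a description, and nothing is supported by them. The rule found all 10 genes, on 20 probe sets, among 19775 genes measured in all.

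The study measured RNA of 2 melanoma cell lines on Affymetrix U133 Plus 2.0 arrays, each line once. IGR39 comes from a primary skin tumour that the labels call achromic, and IGR37 comes from a metastasis in a lymph node. Both were grown in DMEM with 10% serum, and the labels name no treatment. Each array is 1 culture of 1 line, so a difference between the lines cannot be told apart from a difference between tumour sites or between culture dishes. In such bulk RNA, fewer cells that express a gene and less RNA per cell cannot be told apart either. With no replicate there is no test, no standard error and no p-value, and every difference below lacks a replicate check.

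Lysophosphatidic acid (LPA) and sphingosine 1-phosphate (S1P) are small phosphorylated lipids that act outside the cell on G protein-coupled receptors and change migration, cell shape and survival. LPA is made in the extracellular fluid mainly by autotaxin, the secreted product of ENPP2, which was originally isolated as a motility factor of melanoma cells. S1P is made inside the cell by sphingosine kinases and then exported. Phosphatases of the PLPP family, formerly called PPAP2 or lipid phosphate phosphatases, face the outside of the cell or the lumen of organelles and remove the phosphate, which ends the signal.

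Most of the 10 genes were lower in IGR37. Of the 10, 9 reached log2 6 in the brighter line, the minimum level used for counting. In IGR37, 7 of these 9 lay lower by 2-fold or more, 0 lay higher by as much, and 2 differed by less. Among all 8501 genes at that minimum, the lower share was 9.5% (808 genes) and the higher share 11.4% (973 genes). Centring on housekeeping levels turned that balance, with 1533 genes lower and 532 higher, and left 8 of the 9 lower. The 4-fold limit was passed by 5 of the 9, PLPP2, PLPP3, PLPP4, LPAR1 and S1PR3, beside 4.11% of all genes. The median difference of the 9 genes was -2.46 on the log2 scale, and that of all genes at the minimum was 0.07. With S1PR1 included, the median of the 10 was -1.76. Since the list was drawn up with this comparison known, nothing is read from these shares. PLPP2, PLPP4, LPAR1 and S1PR3 passed the minimum through IGR39 alone, and a gene that passes in this way has to differ to some degree.

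**Figure D1:**
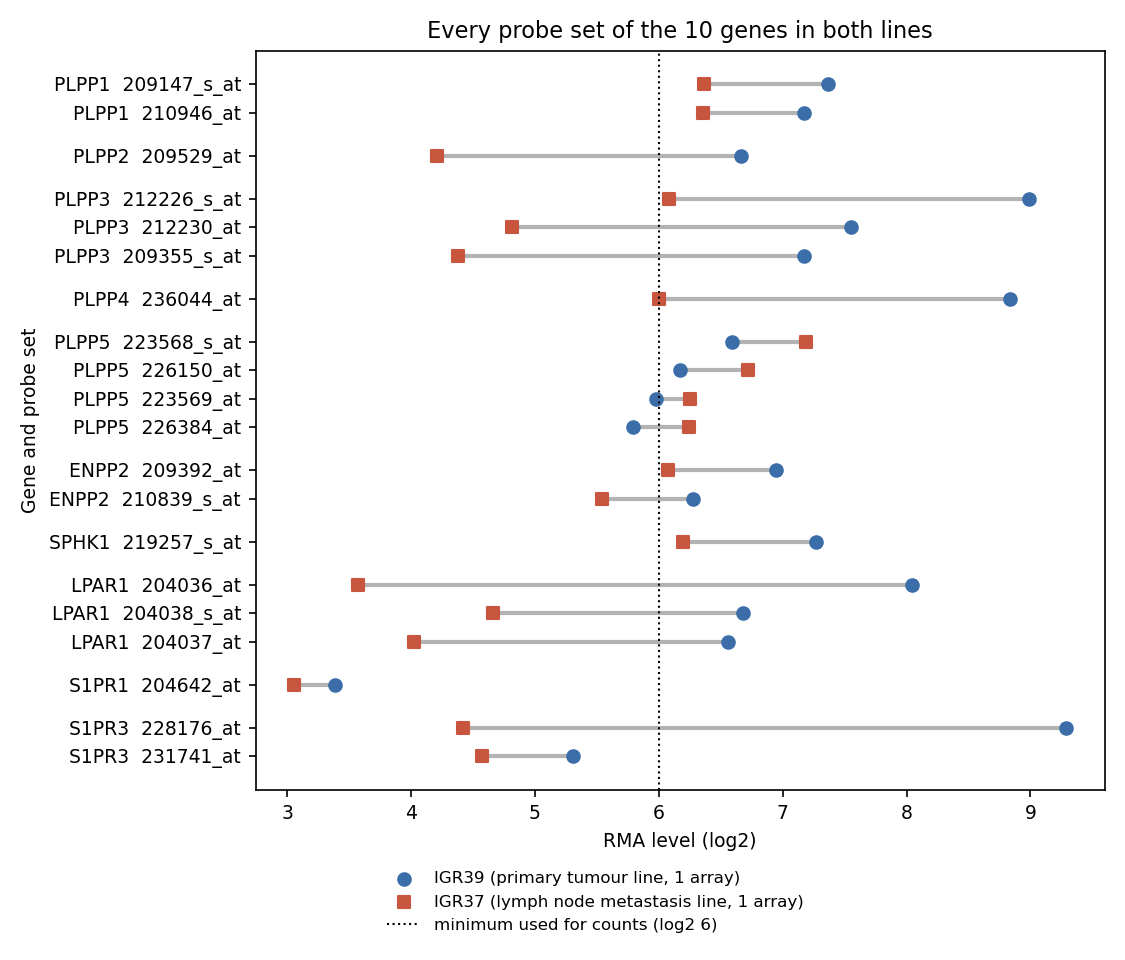
Log2 level (horizontal axis, RMA scale) of each of the 20 probe sets of the 10 genes (vertical axis), with IGR39 as circles, IGR37 as squares and 1 array per line. IGR39 lies to the right for 16 probe sets and IGR37 for the 4 of PLPP5; the widest gaps are those of the brightest probe sets of S1PR3 and LPAR1.

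Upstream sequences are shown here for the 4 genes with the largest differences, as measured on their brightest probe sets, and for SPHK1 as a ligand-making enzyme with a smaller difference. Each is the 250 bases before the outermost annotated start, from RefSeq on the build GRCh38.p14, written along the gene's strand. Capitals mark the matches to any of the 5 motifs described after the sequences, on either strand.

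S1PR3 (chr9:88990613-88990862, plus strand): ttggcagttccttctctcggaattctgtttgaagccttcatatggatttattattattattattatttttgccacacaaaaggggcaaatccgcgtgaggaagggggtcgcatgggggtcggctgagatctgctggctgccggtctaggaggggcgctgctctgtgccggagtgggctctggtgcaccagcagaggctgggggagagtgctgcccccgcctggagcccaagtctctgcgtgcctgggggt

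LPAR1 (chr9:111038999-111039248, minus strand): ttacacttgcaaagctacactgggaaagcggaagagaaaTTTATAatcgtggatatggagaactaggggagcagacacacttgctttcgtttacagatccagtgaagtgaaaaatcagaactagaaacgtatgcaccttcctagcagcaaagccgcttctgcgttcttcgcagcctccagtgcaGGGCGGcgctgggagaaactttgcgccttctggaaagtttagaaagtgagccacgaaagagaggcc

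PLPP3 (chr1:56579564-56579813, minus strand): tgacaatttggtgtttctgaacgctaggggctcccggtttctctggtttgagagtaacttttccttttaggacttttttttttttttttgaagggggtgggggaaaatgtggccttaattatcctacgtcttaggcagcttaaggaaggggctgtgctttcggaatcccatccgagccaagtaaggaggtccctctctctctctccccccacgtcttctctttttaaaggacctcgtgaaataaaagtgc

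PLPP4 (chr10:120456704-120456953, plus strand): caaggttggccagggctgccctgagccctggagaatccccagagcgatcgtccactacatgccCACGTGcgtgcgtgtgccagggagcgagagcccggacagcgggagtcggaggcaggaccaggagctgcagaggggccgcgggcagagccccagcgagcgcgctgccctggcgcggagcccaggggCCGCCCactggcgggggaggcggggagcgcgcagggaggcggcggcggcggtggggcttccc

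SPHK1 (chr17:76382954-76383203, plus strand): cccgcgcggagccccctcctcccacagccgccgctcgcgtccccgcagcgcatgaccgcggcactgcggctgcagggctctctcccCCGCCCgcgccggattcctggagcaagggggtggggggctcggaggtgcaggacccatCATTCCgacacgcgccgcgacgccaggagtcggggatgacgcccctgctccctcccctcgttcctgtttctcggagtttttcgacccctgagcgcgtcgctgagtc

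The motifs searched were the TEAD core GGAATG, the AP-1 site TGANTCA, the E-box CACGTG that MITF and other factors bind, the GC box GGGCGG and the TATA box TATAAA. Promoter sequences were matched for 7 of the 10 genes, with 16 start sites in all. The S1PR3 and PLPP3 sequences printed hold 0 matches. LPAR1 holds a GC box and a TATA letter match on the reverse strand, PLPP4 an E-box and a GC box, and SPHK1 a TEAD motif 106 bases before its start and a GC box. Over all 16 starts, some matches overlapping, the GC box was matched 12 times for LPAR1, 8 for S1PR3, 4 for PLPP4 and 3 for SPHK1. These are 4 of 7 genes, beside 46.2% of the 27305 genes with an upstream sequence of this length. The TEAD motif was in 1 of the 7, beside 14.3% of all genes. Counted by start, the GC box was in 10 of 16, beside 42.6% of all starts, and the TEAD motif in 1 of 16, beside 11.9%. A gene with more starts has more room for a match and, as LPAR1 does here, weighs more in the count by start. Nothing is therefore read from the shares of genes or of starts. The AP-1 site was matched in SPHK1 alone, 71 bases before an inner start, beside 8.06% of all genes. The E-box in PLPP4 stands beside 7.73% and the TATA letters in LPAR1 beside 13.0% of all genes. At the outermost start, the 250 bases hold 10 CpG dinucleotides for S1PR3, 11 for LPAR1, 7 for PLPP3 and 25 for PLPP4. They hold 31 for SPHK1, 18 for S1PR1 and 32 for PLPP2, beside a median of 11 over all upstream sequences. The inner start of S1PR3 holds 28, and those of LPAR1 hold from 2 to 39. These matches are letters in a window, and the arrays carry no measurement of binding or methylation.

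The phosphatases divided. PLPP3, which degrades extracellular LPA and S1P and is also known as LPP3, was lower in IGR37 on all 3 of its probe sets. The brightest was at 8.99 in IGR39 against 6.08 in IGR37, for a difference of -2.91, or 7.49-fold lower. The other two were at 7.55 and 4.82 and at 7.17 and 4.38, with differences of -2.73 and -2.79. The 3 probe sets thus gave nearly the same difference at different brightness, and IGR37 reached log2 6 on the brightest alone.

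PLPP4, a phosphatase of phosphatidic acid and related lipids formerly named PPAPDC1A, had 1 probe set. It was at 8.84 in IGR39 against 6.00 in IGR37, for a difference of -2.84, or 7.15-fold lower. PLPP2, another lipid phosphate phosphatase that acts on LPA, S1P and phosphatidic acid, also had 1 probe set. This stood at 6.66 in IGR39 against 4.21 in IGR37, for a difference of -2.46, or 5.49-fold lower. For neither gene can a second probe set be set beside the value.

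PLPP1, the broadly expressed member that acts on LPA at the cell surface, differed less. Its 2 probe sets were at 7.37 and 7.17 in IGR39 and at 6.37 and 6.36 in IGR37. The differences were -1.002 and -0.81, so the brighter probe set lay just past the 2-fold limit and the dimmer inside it. PLPP1 stayed above log2 6 in both lines on both probe sets. Its count among the lower genes was lost with the mean over its probe sets (-0.91), after centring the arrays on their medians (-0.98) and on the dimmer probe set alone.

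PLPP5, the relative formerly named PPAPDC1B, went the other way. Its 4 probe sets were at 6.59, 6.17, 5.97 and 5.79 in IGR39 and at 7.18, 6.72, 6.25 and 6.25 in IGR37. Each was higher in IGR37, by 0.60, 0.55, 0.28 and 0.45, which is at most 1.51-fold. These differences lie inside the range of -0.47 to 0.68 that 24 probe sets of poly-A spike-in controls, added to the RNA before labelling, showed between the arrays. PLPP5 is thus the sole phosphatase of the 5 that was not lower in IGR37, and its own difference was no larger than that of the spike-ins.

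The ligand-making enzymes differed by about the 2-fold limit. ENPP2 had 2 probe sets, at 6.95 and 6.27 in IGR39 and at 6.07 and 5.54 in IGR37. The differences were -0.88 and -0.73, or 1.84-fold lower for the brighter, which left the gene within 2-fold. It passed that limit when the arrays were centred on housekeeping genes, with -1.30 by their levels and -1.06 by their median difference. SPHK1, which phosphorylates sphingosine, had 1 probe set at 7.27 in IGR39 against 6.20 in IGR37. The difference was -1.07, or 2.10-fold lower. On their brightest probe sets both enzymes stayed above log2 6 in IGR37, which LPAR1 and S1PR3 did not.

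On the brightest probe set of each gene, the largest differences were those of the receptors LPAR1 and S1PR3. With probe sets averaged this order changed: LPAR1 stood at -3.01, PLPP4 at -2.84, PLPP3 at -2.81 and S1PR3 at -2.80. LPAR1, the LPA receptor EDG2, which couples to Gi, Gq and G12/13 proteins, was lower in IGR37 on all 3 probe sets. The brightest was at 8.05 in IGR39 against 3.57 in IGR37, for a difference of -4.47, or 22.2-fold lower. The others were at 6.68 and 4.66 and at 6.56 and 4.02, with differences of -2.02 and -2.54. All 3 probe sets lay above log2 6 in IGR39 and below it in IGR37, and they shared the direction but not the size. The mean over them was -3.01.

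S1PR3, an S1P receptor with the same range of G proteins, had the widest gap of the set on its brightest probe set and the fourth widest with probe sets averaged. Its brighter probe set was at 9.29 in IGR39 against 4.42 in IGR37, for a difference of -4.87, or 29.3-fold lower. The other was at 5.31 and 4.58, for a difference of -0.73, and reached log2 6 in neither line. The size of the S1PR3 difference thus rests on 1 probe set, and the mean over both was -2.80. S1PR1, the Gi-coupled S1P receptor of endothelial cells and lymphocytes, was at 3.39 in IGR39 against 3.06 in IGR37 on its 1 probe set. That is below the median probe set of either array, 4.17 and 4.14, so no difference is drawn for it.

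Counted from the most negative difference among the 8501 genes at the minimum, PLPP3 was at rank 183, SPHK1 at 745, PLPP1 at 807 and ENPP2 at 956, beside 808 genes past the 2-fold limit. PLPP5 was at rank 1918 from the most positive end. No rank is given for PLPP2, PLPP4, LPAR1 and S1PR3, which were below log2 6 in IGR37. With 2 arrays a pattern is a single difference, so no other gene is named for being like these.

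**Figure D2:**
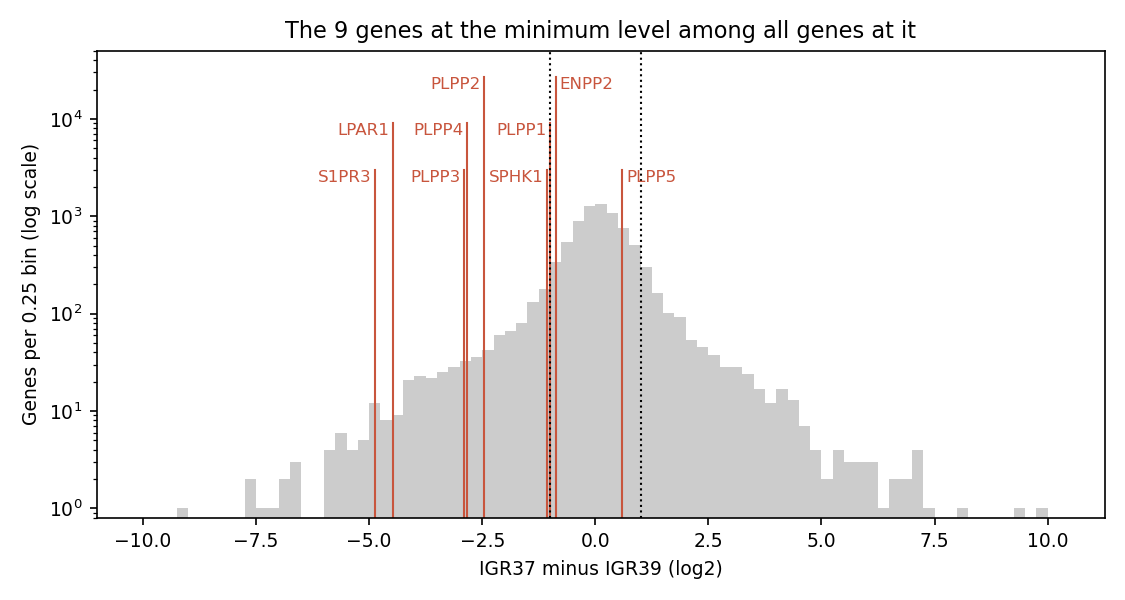
Histogram of the difference between the lines (IGR37 minus IGR39, log2, horizontal axis) for all 8501 genes that reached log2 6 in a line, with the number of genes per bin on a log scale. Vertical lines mark the 9 genes of the set, from S1PR3 at -4.87 to PLPP5 at 0.60, and dotted lines mark the 2-fold limits.

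The other receptors for LPA and S1P were mostly near background in both lines. Of 8 measured, 1 reached log2 6. This was S1PR2, an S1P receptor that couples to G12/13 and is known to restrain migration, at 6.04 in IGR39 against 6.26 in IGR37. LPAR2 was at 5.29 and 5.12, LPAR3 at 4.62 and 4.79, LPAR4 at 2.94 and 3.02, and LPAR6 at 3.94 and 3.95. S1PR4, the receptor of blood cells, was at 5.08 and 5.02, and S1PR5 at 3.84 and 3.57. GPR35, an orphan receptor proposed to bind LPA, was at 4.33 and 4.42. None of these 8 differed by 2-fold, and 7 of them were below log2 6 in both lines.

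Enzymes and exporters of S1P were lower in IGR37 by 2-fold or more for 3 of the 4 that reached the minimum, and 0 were higher by as much. Among all genes at the minimum, 9.5% were lower by as much and 11.4% higher. SGPL1, the lyase that destroys S1P irreversibly, was at 7.91 in IGR39 against 6.53 in IGR37, for a difference of -1.38, with -1.07 and -0.26 on dimmer probe sets. ABCA1, a cholesterol transporter also tied to S1P export, was at 7.69 and 3.48, with -4.21 and -3.89 on its 2 probe sets at this level. ABCG2 was at 7.31 and 5.17, whereas the transporter ABCC1 was at 7.47 and 7.66. ABCA1 and ABCG2 passed the minimum through IGR39 alone and so had to differ to some degree, and nothing is read from the count. The S1P phosphatases SGPP1 and SGPP2 were below log2 6, at 5.80 and 5.47 and at 3.78 in both lines, and so were the exporter SPNS2, at 5.22 and 5.10, and the S1P carrier APOM, at 5.15 and 5.03. The median of the 4 was -1.76, and with all 8 measured genes of this list it was -0.22. When the probe sets of each gene were averaged, 1 gene of the list passed the 2-fold limit as lower.

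Enzymes that make or clear LPA by other routes mostly lay within 2-fold between the lines. Of 13 that reached the minimum, 2 passed the 2-fold limit as higher in IGR37, 0 as lower and 11 lay between, beside 11.4% higher and 9.5% lower among all genes. Without probe sets of the suffix _x_at or _s_at, 1 gene was lower, as after either centring on housekeeping genes. Housekeeping levels left 1 higher, as did averaging probe sets. LPCAT2, counted as within 2-fold, was at 7.95 and 6.63 on another probe set, a difference of -1.32. The median of the 13 was 0.35, which turned to -0.08 after centring on housekeeping levels. PLA1A, a secreted phospholipase known mainly for making lysophosphatidylserine, was at 3.34 in IGR39 against 7.66 in IGR37, for a difference of 4.32 on its 1 probe set. It passed the minimum through IGR37 alone. ABHD6, a lipase of monoacylglycerols and lysophospholipids, was at 6.78 and 8.06. Among relatives of the phosphatases, 4 reached the minimum, with PLPP7 at 6.11 and 4.73 and the phosphatidic acid phosphatase LPIN1 at 6.09 and 7.56. PLPP7 passed the minimum through IGR39 alone, on its 1 probe set. At a minimum of log2 7, and without probe sets of the suffix _x_at or _s_at, 0 of these relatives were lower by 2-fold. In the ENPP family, ENPP1 was the 1 relative of 5 at the minimum, at 5.61 and 6.38.

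**Figure D3:**
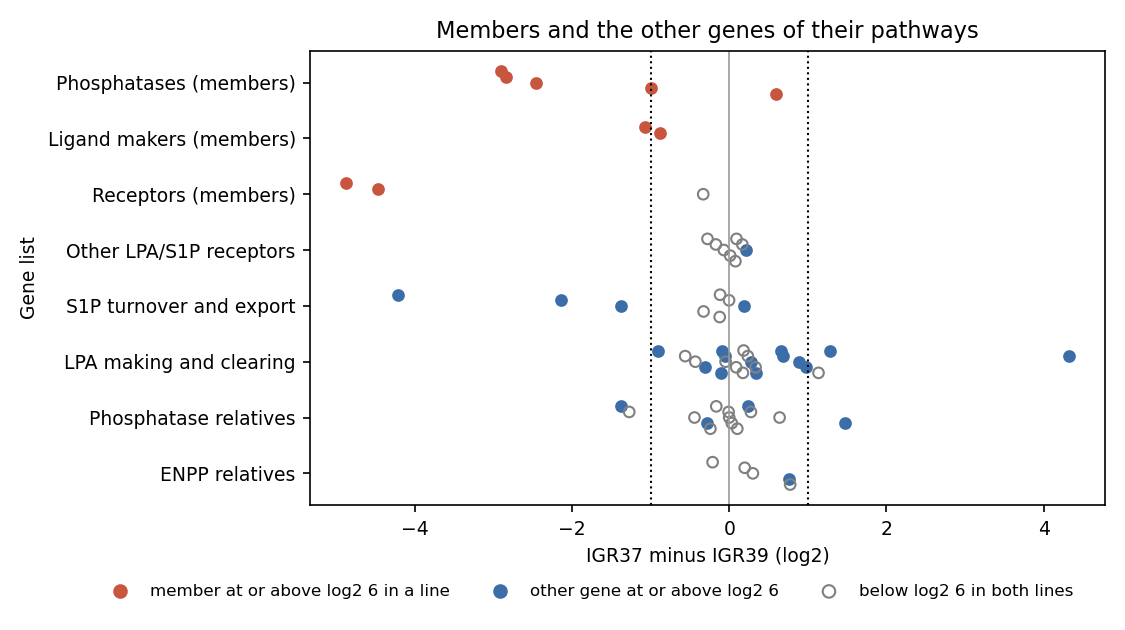
Difference between the lines (IGR37 minus IGR39, log2, horizontal axis) for each gene of the set and of 5 related lists (vertical axis), filled where the gene reached log2 6 in a line and open where it did not. Dotted lines mark 2-fold; S1PR3 and LPAR1 lie at -4.87 and -4.47, while S1PR1 of the set (-0.33) and the other LPA and S1P receptors lie near 0, all open but S1PR2.

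Markers of cell identity were read beside these values. The melanocyte list separated the lines, with 7 of 7 measured markers above log2 6 in IGR37, from 8.38 to 13.05, and 1 of 7, MITF, in IGR39, where they ran from 3.15 to 7.57. The defining pigment markers were thus near background in IGR39. Markers of endothelial cells, which express S1PR1, PLPP3 and S1PR3 in the body, reached log2 6 for 0 of 10 genes, with a highest value of 4.98. For lymphocytes and macrophages, 0 of 8 reached it, and the highest was 5.03. Of 10 fibroblast markers, 5 reached log2 6 in a line. Of these, 3 were lower in IGR37 by 2-fold or more and 1 higher, beside 9.5% and 11.4% of all genes. On their brightest probe sets, those lower were POSTN, at 7.53 in IGR39 against 3.14 in IGR37, FAP, at 8.85 and 6.83, and COL1A2, at 6.27 and 3.84. LUM was higher, at 3.41 and 6.26, COL1A1 was at 5.87 and 6.15, and the other 5 stayed below log2 6 in both lines. POSTN and COL1A2 passed the minimum through IGR39 alone and LUM and COL1A1 through IGR37 alone, so nothing is read from the count. Over all their probe sets, differences ran from -2.20 to 0.27 for COL1A1 and from 0.13 to 2.85 for LUM. For POSTN they ran from -4.39 to 0.14, and for COL1A2 from -2.43 to -0.09. The list thus moved in both directions, and the part of these markers in the differences of LPAR1, S1PR3 and the phosphatases was not tested.

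Under every alternative in which they were measured at the minimum, the 5 genes past the 4-fold limit stayed past it; PLPP2 drops out at a minimum of log2 7. S1PR3 ranged from -5.29 to -2.80 and LPAR1 from -4.90 to -3.01 over the alternatives tried, with the mean over all probe sets as the smallest in size for both. PLPP3 ranged from -3.33 to -2.73, PLPP4 from -3.26 to -2.81 and PLPP2 from -2.88 to -2.33. PLPP5 stayed positive, from 0.17 to 0.62. From 5 to 8 of the genes passed the 2-fold limit as lower. The lowest count came when probe sets with the suffix _x_at or _s_at were left out, which took away the only probe set of SPHK1 and the brighter of PLPP1.

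**Figure D4:**
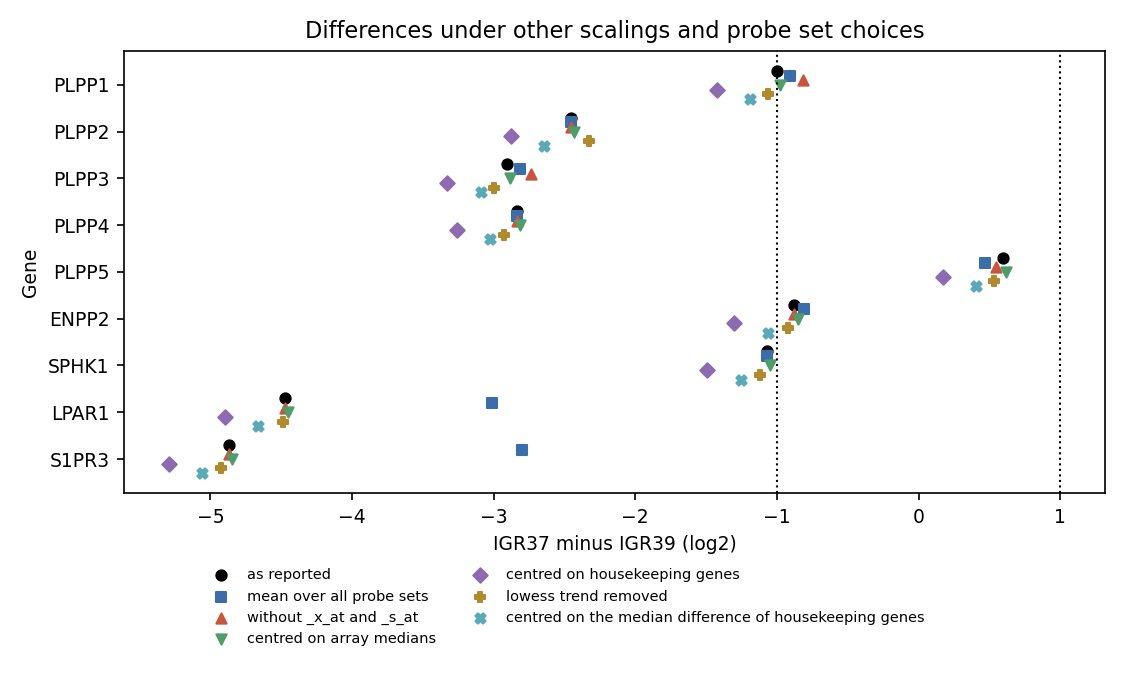
Difference between the lines (IGR37 minus IGR39, log2, horizontal axis) of the 9 genes at the minimum (vertical axis) as reported and under 6 other scalings or probe set choices, 1 symbol each. The symbols of PLPP1 and ENPP2 lie on both sides of the dotted 2-fold line, and all those of SPHK1 lie past it. Averaging all probe sets moves LPAR1 to -3.01 and S1PR3 to -2.80.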

How the data were processed

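The authors deposited log2 values per probe set. The submitters' processing notes name RMA and the affy package, with no versions. RMA subtracts a modelled background, equalises the distributions of the arrays by quantile normalisation and compresses differences between low levels, so values near background understate a difference. Which arrays were normalised together is not given in the sources used here. The arrays give no read depth, and their number, 1 per line, limits the precision.

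Gene names came from the annotation of the platform and were brought up to date by gene identifier through a RefSeq table of GRCh38.p14, which 41043 of 41097 probe sets with 1 symbol matched. A gene was represented by its probe set of highest mean over both arrays, and genes were counted where they reached log2 6 on either array. Differences are IGR37 minus IGR39, so a difference of 1 is 2-fold. All 10 genes were named with every probe set. Of the other pathway genes, all measured receptors and S1P enzymes were named, and elsewhere those at least 2-fold different, up to 4 each way per list. For the other receptors, 8 of 10 listed genes were measured, and so were 8 of 10 for S1P turnover and export. The genes of 1 list are not reported here. FAP, POSTN, COL1A2, LUM, COL1A1, ENPP1 and MITF were named after their values were seen. The genes and lists were chosen with earlier results of these data known. Calculations used Python 3.11.15, numpy 2.4.6, pandas 2.3.3 and statsmodels 0.14.6, and were tested on simulated data.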

Additional observations from a re-analysis of the deposited data

How the results depend on the processing

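No paired analysis was possible because each line has 1 array. The values were recomputed with a minimum of log2 5, of 7 and with none, with a gene's probe sets averaged, with the _x_at and _s_at probe sets left out, after centring on array medians or on the median level of 23 housekeeping genes, and after removing a lowess trend of span 0.3. Centring on the median difference of the housekeeping genes was added after the data were seen. A value counted as moved when it shifted by more than 0.40, the pooled SD between probe sets of a gene, and a count when it changed over 1.5 times. By this, 311 of 370 values were alike and 59 moved. Part of this tally was fixed in advance, since a change of the minimum cannot alter the difference of a single gene. Centring shifts every such difference by the same amount. This was 0.42 for housekeeping levels and 0.19 for the median housekeeping difference, beside the limit of 0.40. The tally is therefore not read as a measure of stability. None of the 9 lysophospholipid genes at the minimum turned sign. Medians turned after centring on housekeeping levels for all genes, for the pathway lists together, for the lists of LPA and of sphingolipid enzymes, and for the list of other receptors, which is S1PR2 alone, from 0.22 to -0.20. At a minimum of log2 7 the medians of the phosphatase relatives and of phosphatidic acid turnover turned, from -0.02 to 0.85 and from -0.05 to 0.62. The other medians that turned shifted by less than 0.40.

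The median of the lysophospholipid genes was -1.76 with no minimum and -2.88 after centring on housekeeping levels. Centring on housekeeping levels shifted the median of all genes by -0.45, from 0.07 to -0.38, with 1533 genes lower and 532 higher. Averaging all probe sets gave 503 lower and 588 higher. Of 67 genes of the 8 pathway lists at the minimum, 8 were lower by 2-fold or more and 7 higher. Their median was 0.01. These counts stand beside 9.5% lower and 11.4% higher among all genes at the minimum, and nothing is read from them. For the lists, averaging probe sets left 2 lower. Housekeeping levels gave the lists 17 lower, 4 higher and a median of -0.47. The median housekeeping difference gave them 13 lower, beside 1072 of all genes. Differences of genes whose dimmer line lies near background may be understated by RMA. The spread between cultures was not measured.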

Other observations

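Enzymes of sphingolipid synthesis and breakdown, which set the supply of sphingosine, mostly lay within 2-fold between the lines. Of 17 at or above log2 6, 13 lay within 2-fold, 3 passed that limit as higher in IGR37 and 1 as lower. Among all genes at the minimum, 11.4% were higher by as much and 9.5% lower, and nothing is read from the count. ASAH1, the lysosomal acid ceramidase that releases sphingosine from ceramide, read 8.67 in IGR39 against 11.73 in IGR37, and its 4 probe sets at this level differed by 3.06 to 3.64. SMPD2, a neutral sphingomyelinase, was at 5.68 and 8.11 on 1 probe set and passed the minimum through IGR37 alone. KDSR, a reductase of sphingolipid synthesis, was at 6.59 and 7.94. SPTLC1, a subunit of the enzyme that starts the pathway, was at 9.45 and 8.38; a dimmer probe set went the other way, at 4.45 and 5.28, and with probe sets averaged 0 genes of the list passed the limit as lower. The list's median was 0.27, beside 0.07 for all genes, and turned to -0.18 after centring on housekeeping levels.

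Of 7 genes of phosphatidic acid and diacylglycerol turnover at the minimum, DGAT1 alone passed 2-fold, at 6.06 and 7.35. Among all genes at the minimum, 11.4% were higher in IGR37 by as much and 9.5% lower.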
